A study of Mus musculus with 2 samples.

Results

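Each of the 38 genes described here is best known for specialised work in cells other than B cells. Each was looked up in a map of accessible chromatin of mouse splenic B cells. They are terminal genes of 12 tissues or tissue groups. These are liver, pancreatic islet, striated muscle, nervous system, keratin epithelium, kidney, lung, fat, matrix and vessel, testis, intestine, and pituitary and thyroid. The genes were taken from general knowledge out of 22350 protein-coding genes on chromosomes 1 to 19 and X, with earlier results of these data known. The cells came from the spleen of C57/Bl6 animals of 8 weeks with the genotype Trp53+/+ and mock treatment, enriched on magnetic beads against the surface marker B220. The series holds 2 samples, 1 DNaseI library with a peak list and 1 input library, and no replicates. A region where DNase I cut often is a DNase I hypersensitive site (DHS), and a gene was counted as having a promoter DHS when at least 1 bp of a DHS lay between 5 kb upstream and 2 kb downstream of any of its transcription start sites (TSSs) in GENCODE release M1 on the mm9 build. The promoter window counts all DHS near a start, including those that serve a neighbour, so each was also set against the TSSs of all other genes.

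DNase I cuts where nucleosomes are displaced, mostly at active or poised promoters and enhancers. Promoters of terminal genes often lack a CpG island and depend on factors of their own tissue, whereas CpG-rich promoters tend to be accessible in most cell types. In a sample of many cells, few cells with an open site and many cells with a weakly open site cannot be told apart.

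The sequence of the start sites was the first feature that the choice of genes did not use. The word TATAAA, the core of the TATA box that positions the start of transcription, was searched on the coding strand between 45 and 15 bases before the 5′-most TSS of a coding transcript (hereafter the main TSS). It occurred in 5 of the 38 genes (13.2%, exact 95% interval 4.41 to 28.1), against 2.66% of all protein-coding genes and 4.08% of those without a CpG-rich promoter. The word was not particular to the 38, with 18.6% (10.3 to 29.7) in 70 further terminal genes of the same tissues and 1 of 12 genes (8.33%, 0.211 to 38.5) in a list of B cell genes. Before any TSS it occurred in 8 of 38 (21.1%, 9.55 to 37.3), with Ins2, Myh6 and Col1a1 added, against 4.16% of all protein-coding genes and 5.19% of those without a CpG-rich promoter. The 100 bases before the main TSS are shown for the first 5 genes, since none of them had a DHS over that TSS. The word, in capitals, began 26 to 32 bases before the TSS.
Gcg, chr2:62321708-62321807, minus strand: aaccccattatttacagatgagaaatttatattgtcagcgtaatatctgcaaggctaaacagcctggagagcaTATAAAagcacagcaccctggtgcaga
Nefl, chr14:68701820-68701919, plus strand: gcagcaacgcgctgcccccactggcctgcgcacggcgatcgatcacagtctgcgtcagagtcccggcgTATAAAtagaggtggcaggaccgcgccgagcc
Scgb1a1, chr19:9162449-9162548, minus strand: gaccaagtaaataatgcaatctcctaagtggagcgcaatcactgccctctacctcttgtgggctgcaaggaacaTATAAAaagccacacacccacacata
Pomc, chr12:3954851-3954950, plus strand: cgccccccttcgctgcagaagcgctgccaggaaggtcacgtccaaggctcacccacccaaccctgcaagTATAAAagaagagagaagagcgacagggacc
Tg, chr15:66502215-66502314, plus strand: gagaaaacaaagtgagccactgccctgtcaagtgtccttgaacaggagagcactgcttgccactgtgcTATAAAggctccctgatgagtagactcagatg

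The other sequences to show are those of DHS that did lie near these genes. The DHS in the windows of Ckm and Myl2 were the ones that held a CTCF word, CCANNAGNNGGC, in their central 300 bp. The DHS at Cdh5 had the highest score of all DHS in promoter windows of the 38 genes. The DHS at Gh lay in the stretch between Gh and the B cell gene Cd79b. The central 200 bases of each are given on the plus strand, with the CTCF word in capitals at Ckm and Myl2, the ETS word GGAAGT (here as its reverse complement) at Cdh5, and the RUNX word TGTGGT at Gh.
Ckm, chr7:19990863-19991062: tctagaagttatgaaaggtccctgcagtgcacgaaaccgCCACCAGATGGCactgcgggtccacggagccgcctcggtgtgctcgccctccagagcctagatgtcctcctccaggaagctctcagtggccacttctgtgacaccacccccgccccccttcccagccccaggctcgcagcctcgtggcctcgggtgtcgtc
Myl2, chr5:122554284-122554483: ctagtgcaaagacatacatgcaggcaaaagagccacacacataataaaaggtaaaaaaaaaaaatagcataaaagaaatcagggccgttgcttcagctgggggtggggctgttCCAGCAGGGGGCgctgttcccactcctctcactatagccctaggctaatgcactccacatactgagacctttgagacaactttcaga
Cdh5, chr8:106623312-106623511: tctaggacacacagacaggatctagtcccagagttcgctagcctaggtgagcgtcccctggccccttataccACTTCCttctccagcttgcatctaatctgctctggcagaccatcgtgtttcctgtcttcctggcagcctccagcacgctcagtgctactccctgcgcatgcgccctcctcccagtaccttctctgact
Gh, chr11:106164544-106164743: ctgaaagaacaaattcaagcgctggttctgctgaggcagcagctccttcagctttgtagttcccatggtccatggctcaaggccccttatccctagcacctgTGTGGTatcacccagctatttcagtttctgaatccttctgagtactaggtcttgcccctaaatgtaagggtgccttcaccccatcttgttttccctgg

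A promoter DHS was called at 12 of the 38 genes (31.6%, exact 95% interval 17.5 to 48.7), against 57.0% of all protein-coding genes. These 12 were Apoa2, Actn2, Ckm, Myl2, Gfap, Mbp, Adipoq, Col1a1, Col2a1, Cdh5, Gh and Tg. A DHS covered a TSS in 5 of 38 (13.2%, 4.41 to 28.1), namely Actn2, Gfap, Mbp, Col1a1 and Tg, against 46.6% of protein-coding genes. The main TSS was covered in Mbp alone, against 40.7% of protein-coding genes. Intervals cover counting error only, genes are not replicates, and with a single library there is no test. The depth of the library is unknown, so that a gene without a DHS is a gene at which none was called.

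**Figure D1:**
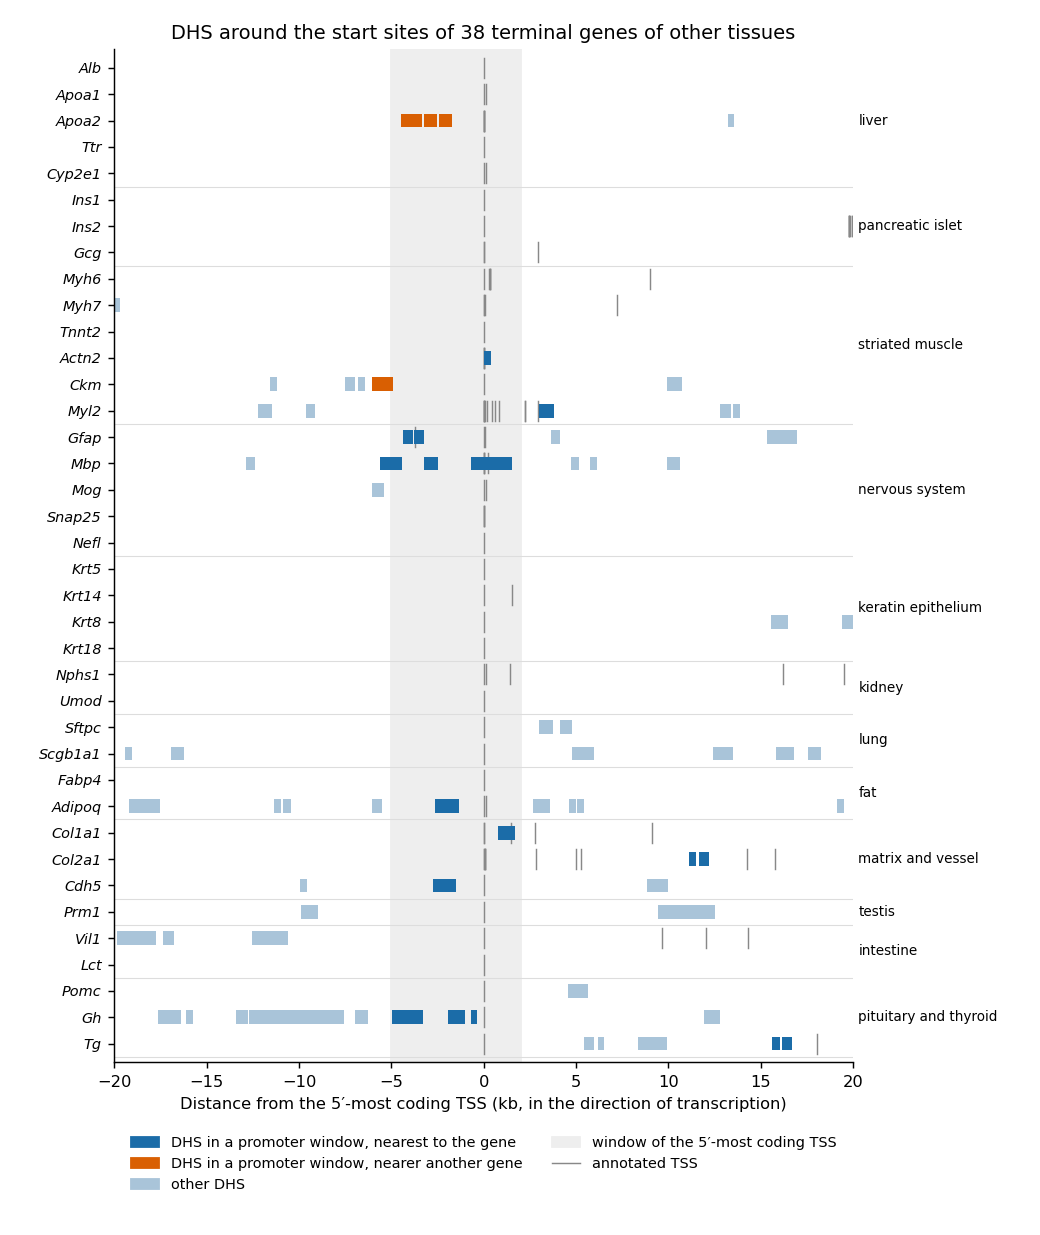
DHS within 20 kb of the main TSS of each of the 38 genes, drawn in the direction of transcription (kb), with grey ticks for annotated TSSs. Dark blue and orange blocks are DHS in a promoter window of any TSS. Only Mbp has a DHS over its main TSS, 18 genes have no DHS in the range, and windows of TSSs further than 20 kb away are not drawn.

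Further gene lists were counted the same way. They were chosen with earlier results of these data known, so they are a description and no independent check of the labelled cell type. All 12 B cell genes had a promoter DHS (73.5 to 100%), and each had a DHS over a TSS. All 12 housekeeping genes had a promoter DHS as well. Of 12 T cell genes 2 had one (Cd247 and Lat, 16.7%, 2.09 to 48.4), and Cd3e, Cd3d, Cd3g, Cd4 and Cd8a had none. Of 12 myeloid genes 6 had one (Itgam, Cd14, Cd68, Elane, Csf3r and Emr1, 50%, 21.1 to 78.9), and Csf1r, Lyz2, Mpo and Ly6g were among those without. The DHS in the window of Cd68 was nearest to Eif4a1. For a promoter DHS, the myeloid interval contains the 57.0% of all protein-coding genes. Both intervals contain the 35.1% of those without a CpG-rich promoter. A DHS covered a TSS in 0 of 12 T cell genes, which allows up to 26.5%, and in 1 of 12 myeloid genes (8.33%, 0.211 to 38.5). The nearest DHS of Lat, Itgam and Emr1 was only 2, 7 and 13 bases from a TSS. Within 1 kb of a TSS the counts were 1 of 12 T cell and 3 of 12 myeloid genes. The B cell genes and the 38 terminal genes are alike in base composition, with a median observed to expected CpG ratio of 0.217 and 0.246 around the main TSS, against 0.554 for all protein-coding genes.

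**Figure D2:**
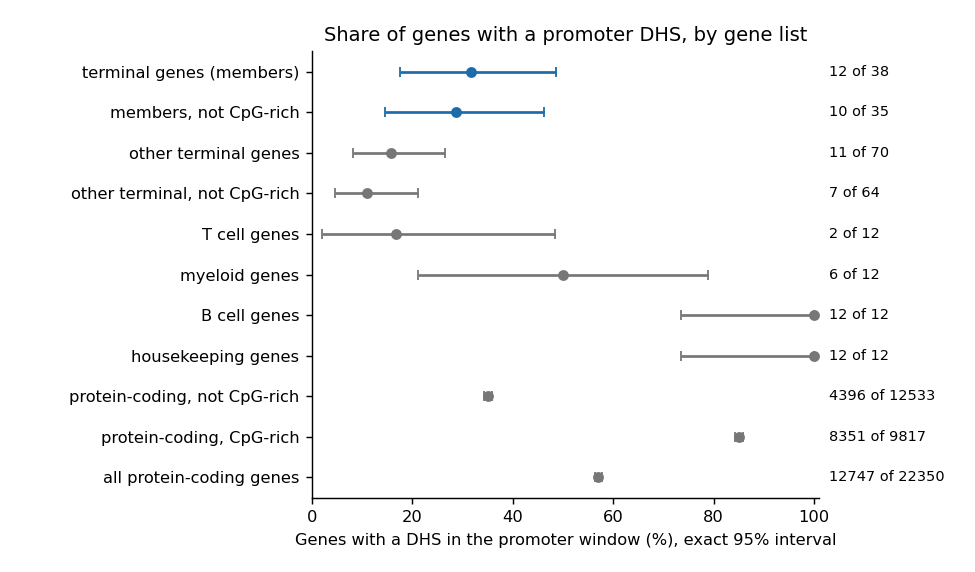
Share of genes with a promoter DHS (%) by gene list, with the exact 95% interval and the count at the right. The terminal genes (blue) sit at 31.6%, below the 57.0% of all protein-coding genes and near the 35.1% of genes without a CpG-rich promoter, while the B cell and housekeeping lists are at 100%.

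The comparison was repeated by base composition. Genes were classed as CpG-rich if the GC content was 55% or more, and the ratio of observed to expected CpG 0.6 or more, in 1000 bp around any TSS. This held for 3 of the 38 genes (Mbp, Nefl and Col2a1, 7.89%, 1.66 to 21.4), against 43.9% of all protein-coding genes. A promoter DHS was present at 85.1% of CpG-rich genes and 35.1% of the others. Among the 35 terminal genes without a CpG-rich promoter 10 had one (28.6%, 14.6 to 46.3), and the interval of that share contains the 35.1%. A DHS covered a TSS in 4 of these 35 (11.4%, 3.20 to 26.7), against 25% of protein-coding genes of that class, which this interval also contains. The genes of the B cell list, chosen with earlier results of these data known, all had a promoter DHS at a like CpG ratio. Of the CpG-rich members Mbp and Col2a1 had a promoter DHS and Nefl did not. Nefl, which encodes a neurofilament subunit of axons, had a CpG ratio of 0.796, the highest of the 38, and its nearest DHS was 149 kb away.

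**Figure D3:**
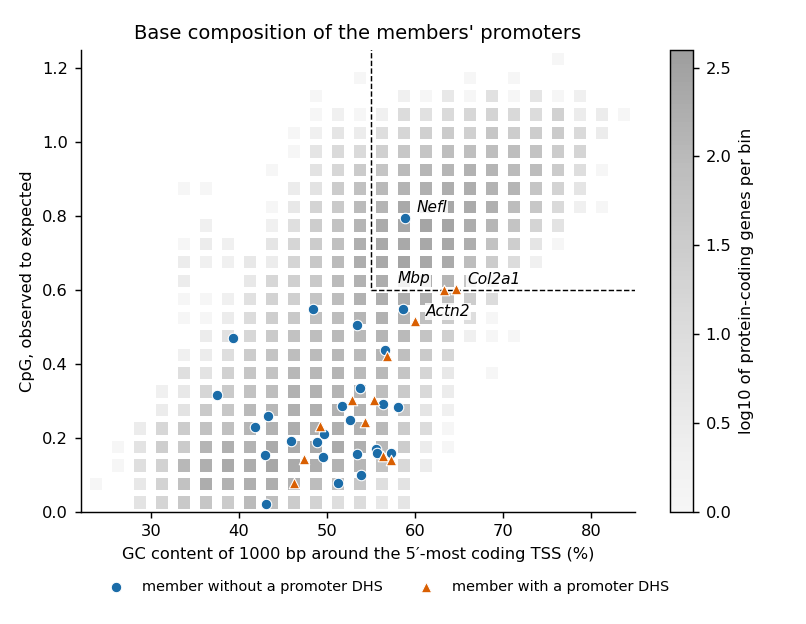
GC content (%) and observed to expected CpG ratio in 1000 bp around the main TSS, for the 38 genes (points) over all protein-coding genes (grey bins, log10 of genes per bin). Dashed lines mark the limits of the CpG-rich class, which holds 3 of the 38, Mbp and Col2a1 close to the limit of 0.6 and Nefl at 0.796.

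A further 70 terminal genes of the same tissues, also from general knowledge and with earlier results known, gave 11 with a promoter DHS (15.7%, 8.11 to 26.4). The interval overlaps that of the 38 genes. Without the CpG-rich genes the count was 7 of 64 (10.9%, 4.51 to 21.2), an interval that lies below the 35.1% of protein-coding genes of that class. Those with one were Apoh, F9, Ppy, Tnni3, Nefh, Syn1, Cfd, Comp, Kdr, Vwf and Lhb. By tissue, a promoter DHS was called at 3 of 6 striated muscle genes among the 38 and 1 of 10 further ones. For matrix and vessel the counts were 3 of 3 and 3 of 9, and for keratin epithelium, where the further genes include Lor and Ivl, 0 of 4 and 0 of 7. Neither kidney, lung, testis nor intestine had any, with 0 of 7 among the 38 and 0 of 16 among the further genes. These tissues were grouped because each had none. With 1 to 4 genes of each per list, the upper limits by tissue were 60.2 to 97.5%, so the counts show no tissue pattern.

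The 12 genes held 25 DHS in their windows, and the median score of these was below that at protein-coding genes in general. The authors' score, used here only to rank DHS within the list, had a median of 36.97 (9.21 to 131.79) over the 25, against 57.22 over all DHS in windows of protein-coding genes and 32.65 over the whole list. The highest score per gene had a median of 60.4 over the 12 genes, against 101.2 over protein-coding genes with a promoter DHS and 142.7 over the B cell list. It was below 101.2 in 11 of the 12, the exception being Cdh5. Open genes without a CpG-rich promoter had a median of 74.62, and 7 of the 12 were below that, while Apoa2, Mbp, Adipoq, Cdh5 and Gh were above it. The 11 open genes among further terminal genes of the same tissues had a median of 34.25, below that of the 12. The median width of the 25 was 796 bp, against 965 bp for all DHS in windows of protein-coding genes.

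**Figure D4:**
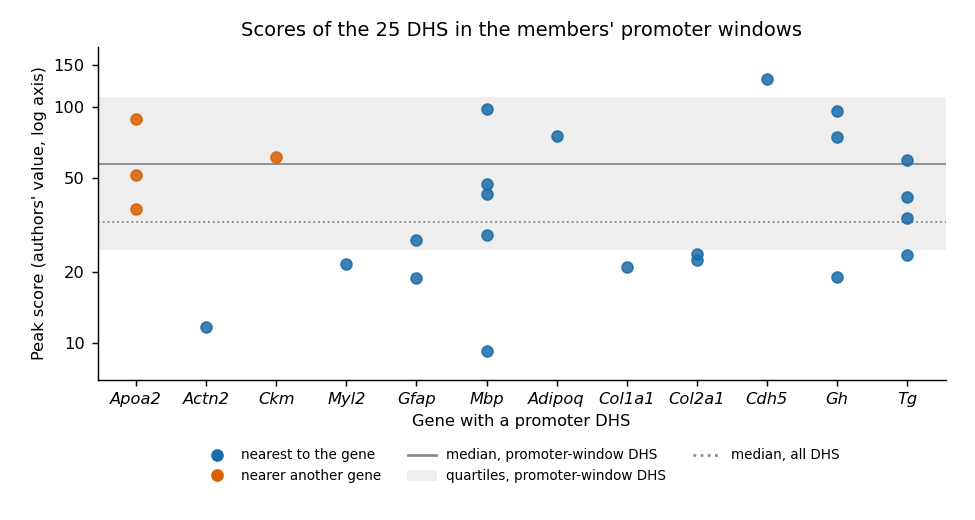
Authors' score (log axis) of each of the 25 DHS in a promoter window, by gene. The solid line and grey band give the median (57.22) and quartiles of all DHS in windows of protein-coding genes, the dotted line the median of all DHS (32.65), and orange points are DHS nearer a TSS of another gene.

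Of the 25 DHS, 4 were nearer a TSS of another gene (16.0%, 4.54 to 36.1), against 18.3% over all pairs of a protein-coding gene and a DHS in its window. They account for 2 genes, Apoa2 and Ckm. This leaves 10 of 38 with a promoter DHS nearest to themselves (26.3%, 13.4 to 43.1), against 51.5% of protein-coding genes. Without the CpG-rich genes the share was 22.9% of the members (10.4 to 40.1), an interval that contains the 30.9% of protein-coding genes of that class. Apoa2, an apolipoprotein that liver secretes on high density lipoprotein, had 3 DHS around the start of its neighbour. They spanned chr1:173150731-173151847, chr1:173151952-173152657 and chr1:173152794-173153498, with scores of 51.74, 89.17 and 36.97. Their centres lay 3896, 2881 and 2039 bases upstream of Apoa2, but 1026, 11 and 501 bases from the TSS of Tomm40l, which encodes a mitochondrial outer membrane protein. The second, with the highest score of the 3, thus sat on the Tomm40l start, and Apoa2 itself held no DHS in its body.

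Ckm, the creatine kinase of muscle, reached its count by the edge of 1 DHS at chr7:19990393-19991533 with a score of 61.44, whose sequence is given above. That edge was 4910 bases upstream, just inside the limit of 5 kb, and its centre was 5480 bases upstream but 1510 bases from Klc3, a kinesin light chain gene. The gene just outside the limit was Mog, a myelin surface protein, with a DHS of score 14.25 that ended 5404 bases upstream. On the downstream side Sftpc, Ins2, Nphs1, Pomc and Scgb1a1 were outside the limit of 2 kb, at 3006, 3391, 3719, 4583 and 4791 bases. For Nphs1 this was measured from an internal noncoding TSS, and its coding TSSs were 26302 to 27712 bases from a DHS. Neither Mog nor these genes of the downstream side had a DHS in a window.

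Other DHS were nearest to alternative or internal starts. Of the 25, 14 were nearest to a TSS of the gene other than its main one, in Actn2, Myl2, Gfap, Mbp, Col1a1, Col2a1 and Tg. Of these, Myl2, Col2a1 and Tg had no DHS in the window of the main TSS. Genes with more annotated TSSs have more windows, and a promoter DHS was called at 3 of 17 members with 1 TSS, 3 of 10 with 2 to 3 and 6 of 11 with 4 or more. Among protein-coding genes without a CpG-rich promoter these shares were 23.0, 41.3 and 64.9%. Of all 121 TSSs of the 38 genes, 31 had a DHS in the window and 9 had one over them.

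Among the striated muscle genes, Actn2 encodes the alpha-actinin that anchors thin filaments at the Z disc. Its DHS at chr13:12432645-12433009 covered 2 of its 3 TSSs and ended 18 bases short of the main one. It scored 11.67 (percentile 8.57 of the list), and its 365 bp had 61.6% GC and a CpG ratio of 0.801. Myl2, the regulatory myosin light chain of ventricular and slow muscle, had a DHS in an intron at chr5:122553987-122554782, 3424 bases downstream of the main TSS and 462 bases downstream of an internal one, with a score of 21.62. The DHS of Actn2 and Myl2 were thus below the median score of the list. The cardiac myosin heavy chains Myh6 and Myh7 had their nearest DHS 17954 and 19672 bases from a TSS. For Myh6 that TSS was an internal noncoding one, and the DHS was 26974 bases from the main TSS. The troponin T gene Tnnt2 had its nearest at 29.1 kb.

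In the nervous system set, the astrocyte filament gene Gfap had 2 DHS at chr11:102761742-102762269 and chr11:102762351-102762879, with scores of 18.89 and 27.43. They lay 3491 and 4101 bases upstream of the main TSS, the first over the start of a noncoding Gfap transcript. Snap25, a protein of synaptic vesicle release, had its nearest DHS 177 kb from a TSS, and that DHS was centred 66 bases from the TSS of 2210009G21Rik. The nearest DHS of Nefl was likewise close to the start of another gene, 556 bases from that of Dock5.

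Mbp, the myelin basic protein gene, was open at one of its groups of starts. It has 4 upstream TSSs, those of the golli products, which are also known from blood cells, and 8 downstream coding TSSs, which give the classic myelin proteins, 79.3 kb apart. All 4 upstream TSSs had DHS in their window and all 4 were covered by 1 DHS of 2258 bp, at chr18:82643842-82646099, with a score of 98.39 at percentile 84. A further pair, at chr18:82638919-82640139 and chr18:82641320-82642090, centred 5009 and 2833 bases upstream, had scores of 42.71 and 47.17. None of the 8 downstream coding TSSs had a DHS in its window, and the nearest was 4229 to 4349 bases from them. That DHS, at chr18:82728204-82729241 with a score of 28.79, and another at chr18:82729582-82729948 with a score of 9.21 were counted through a noncoding TSS further on. The gene body held 13 DHS, or 11.8 per 100 kb, against a median of 3.42 over protein-coding genes of at least 10 kb.

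Of the fat genes, Adipoq, the hormone adiponectin, had a DHS at chr16:23143997-23145277 with a score of 75.48, centred 1972 bases upstream of its main TSS. The nearest TSS of another gene was that of Rfc4, 16827 bases away. A further 3 DHS lay in the body of Adipoq, with scores of at most 17.25. Fabp4, the fatty acid carrier of adipocytes, had its nearest DHS 40.5 kb from its TSS.

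The matrix and vessel genes all had a promoter DHS, but only that of Cdh5 scored above the median of the list. Cdh5 encodes the cadherin of endothelial junctions, and its DHS at chr8:106622798-106624027 had a score of 131.79, at percentile 90.6, centred 2113 bases upstream of its single TSS. The nearest TSS of another gene, Bean1, was 71001 bases from it. Col1a1, the main collagen of bone and skin, had a DHS at chr11:94798295-94799215 with a score of 21.03 that was centred in an intron, began 757 bases downstream of the main TSS and covered a noncoding start. Col2a1, the collagen of cartilage, had 2 at chr15:97822947-97823473 and chr15:97823669-97824011 with scores of 23.94 and 22.56, in introns 11945 and 11315 bases downstream of the main TSS. Among 8 endothelial and stromal markers, Cdh5, Col1a1, Kdr and Vwf had a promoter DHS, the last pair with top scores of 8.92 and 43.68, and Tek, Emcn, Col1a2 and Dcn had none. The part of endothelial or stromal cells in these values was not tested.

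Gh, the growth hormone gene of the pituitary, lies next to Cd79b, which encodes a chain of the B cell receptor. In human the distant control region of the growth hormone locus is known to lie in and beside the B cell gene. The 3 DHS of the Gh window were at chr11:106163529-106163862, chr11:106164175-106165113 and chr11:106166461-106168136, with scores of 19.13, 96.38 and 74.64, centred 516, 1465 and 4119 bases upstream of Gh. The TSS of Cd79b was 12148, 11199 and 8545 bases from these centres, so that all were nearest to Gh. The stretch of 9475 bases between both genes held 5 DHS, counting the one that reaches into Cd79b with a score of 109.17. Within 50 kb of Gh there were 19 DHS, the most of any of the 38 genes and the highest with a score of 223.29 in an intron of Scn4a, against a median of 4 over the 38. Nearness to a TSS and membership of the Cd79b neighbourhood cannot be told apart here.

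Tg encodes thyroglobulin, the precursor of thyroid hormone, and a gene of B and T cells, Sla, lies inside it. The nearest DHS to its main TSS, with the TATAAA shown above, was 5431 bases away. The 4 DHS counted for Tg lay in the windows of internal TSSs. Of these, 2 were at chr15:66517923-66518363 and chr15:66518454-66519007 with scores of 23.52 and 59.36. The other 2, in an intron of Sla, were at chr15:66624348-66625382 and chr15:66629753-66632401 with scores of 33.83 and 41.63. The first of this pair was counted by its edge, 4930 bases upstream of an internal TSS. The second covered a noncoding Tg start and was centred 2078 bases from a TSS of Sla. In all the Tg body held 21 DHS, 11 of them in the 51011 bases of Sla and 10 in the other 128958 bases. Pomc, the precursor of corticotropin, had a DHS of score 64.73 over its own exon, 4583 bases downstream of the TSS.

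At the 26 genes without a promoter DHS, the nearest DHS was 3.006 to 755.49 kb from a TSS, with a median of 26.89 kb. Over all 38 genes the median was 9.79 kb, against 0.109 kb for all protein-coding genes, 17.5 kb for those without a CpG-rich promoter and 28.94 kb for the further terminal genes. The exact 95% interval of the median of the 38, from their ranks, ran from 3.39 to 29.1 kb and so contained the last pair of values. Without the peaks below the median score it was 22.9 kb. The nearest DHS was over 10 kb away in 19 of 38 (50%, 33.4 to 66.6), against 37.1% of all protein-coding genes, 56.0% of those without a CpG-rich promoter and 70% of the further terminal genes. The interval contains the first pair of these shares. It was over 100 kb away in 4 of 38 (10.5%, 2.94 to 24.8), against 19% of all protein-coding genes, 29.5% of those without a CpG-rich promoter and 20% of the further terminal genes. Of these, only the 29.5% lies outside the interval.

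**Figure D5:**
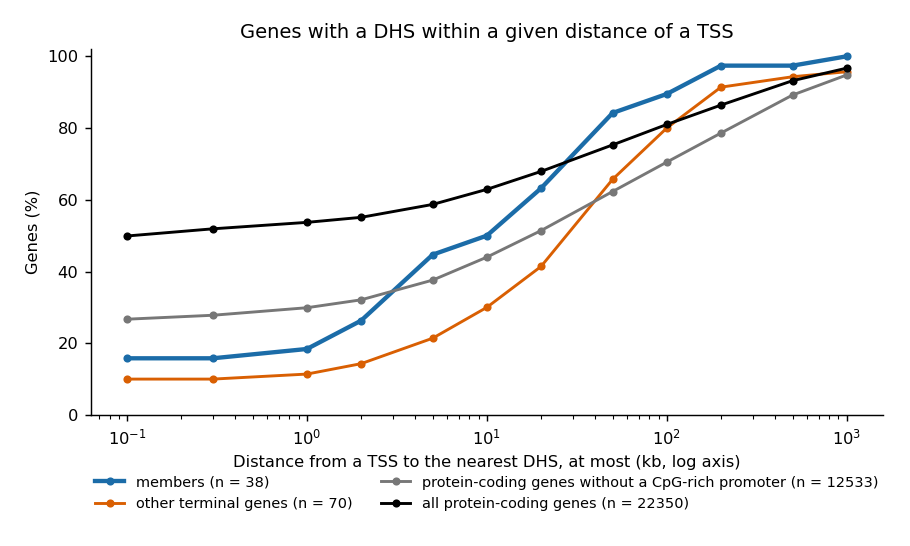
Cumulative share of genes (%) with a DHS within a given distance (kb, log axis) of a TSS, for the 38 genes, the 70 further terminal genes, protein-coding genes without a CpG-rich promoter and all protein-coding genes. Within 1 kb the 38 genes are at 18.4% (exact 95% interval 7.74 to 34.3) and genes without a CpG-rich promoter at 29.9%, and within 50 kb they are at 84.2% (68.7 to 94) and 62.3%.

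Among the liver genes without one, Alb (serum albumin) and Apoa1 (the main protein of high density lipoprotein) had their nearest DHS at 31.2 and 35.0 kb, Ttr (transthyretin) at 24.7 kb and Cyp2e1 (an ethanol-oxidising cytochrome) at 80.6 kb. That of Alb was in an intron of Afp, its fetal relative. In the islet, the insulin genes were far apart in this distance. Ins1 had its nearest DHS at 755 kb, the farthest of the 38, and Ins2 at 3.39 kb downstream, with a score of 14.23. The glucagon gene Gcg had its nearest at 19.2 kb. Ins1 and Ins2 encode almost the same hormone from separate chromosomes.

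The keratins of basal epidermis, Krt5 and Krt14, had their nearest DHS at 59.6 and 36.3 kb, and those of simple epithelia, Krt8 and Krt18, at 15.5 and 37.2 kb. In kidney, the podocyte slit protein Nphs1 had its nearest DHS at 3.72 kb and the tubular protein Umod at 194 kb. The value of Nphs1 was from an internal noncoding TSS, and its main TSS was 26302 bases from a DHS. The lung genes were close to DHS of moderate score. For Sftpc, a surfactant protein, the nearest was at 3.01 kb and only 428 bases from the TSS of Bmp1, and for Scgb1a1, the secretoglobin of club cells, it was at 4.79 kb with a score of 69.09. Prm1, a protamine that packs sperm DNA, had its nearest at 8.99 kb. In the intestine Vil1 (villin of the microvilli) and Lct (lactase) had theirs at 10.6 and 30.8 kb, the second 123 bases from the TSS of Mcm6. Of the 26 genes, 7 had a DHS within 10 kb of a TSS, and 6 had none within 50 kb of the main TSS, namely Cyp2e1, Ins1, Snap25, Nefl, Krt5 and Umod. Those 6 were 15.8% of the 38 (6.02 to 31.3), against 25.7% of protein-coding genes, 38.4% of those without a CpG-rich promoter and 34.3% of the further terminal genes. The interval contains the 25.7%, lies below the 38.4% and overlaps that of the further genes (23.3 to 46.6).

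Short words known for factors of B cells were counted on both strands in the central 300 bp of the 25 DHS, as a description. The ETS word GGAAGT occurred in 5 (20%, 6.83 to 40.7), against 22% of all DHS in windows of protein-coding genes. The EBF1 word CCCNNGGG occurred in 6 (24%, 9.36 to 45.1), against 16.5%, and the RUNX word TGTGGT in 5 (20%), against 16.1%. The Sp1 word GGGCGG, typical of CpG-rich promoters, was in 6 (24%), against 33.0%. The CTCF word was in 2 (8.00%, 0.984 to 26), those shown for Ckm and Myl2, against 4.38%. The PU.1 word GAGGAAGT, which contains the ETS word, was in 0 of 25, which allows up to 13.7%, against 2.83%. For each of these words the interval over the 25 contained the share over all such DHS.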

How the data were processed

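Accessible chromatin was profiled by DNase I-seq in splenic B cells, in 1 DNaseI library with 1 input library and no replicates. Per the labels, the submitters' processing notes name BWA 0.6.2, SAMtools and the mm9 build, and the peak names are those of MACS. Its settings for this library are not given in the sources used here. The deposited list holds 47542 peaks, each with a score (5.05 to 619.44) that the authors give without stating its origin or scale. It holds no read counts, so depth and precision are unknown, and the input library was not used here.

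The 47474 peaks on chromosomes 1 to 19 and X were overlapped with GENCODE M1 TSSs on mm9, and 1 peak passed the end of chromosome 19 by 52 bases. Sequences were read from the mm9 assembly and positions count from 1. Shares carry exact (Clopper-Pearson) 95% intervals, and no p-value is given. The nearest gene is the one with a TSS nearest to the peak centre. Words were searched in the central 300 bp. The computations used Python 3.11.15, pandas 2.3.3 and scipy 1.17.1 and were tested on simulated data.

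All 38 genes are named, those with a promoter DHS with each of its positions and scores. Members of the other lists are named where they are exceptions. The members and lists were chosen with earlier results of these data known. The symbol Adgre1 was matched by its older symbol Emr1. Alternatives varied the window, overlap, score, transcripts, assignment of DHS and CpG limit.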

Additional observations from a re-analysis of the deposited data

How the results depend on the processing

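The share of the 38 genes with a promoter DHS, 31.6%, was 18.4% within 1 kb of a TSS, 28.9% by the peak centre, 18.4% with peaks at or above the median score, 26.3% with coding transcripts, 23.7% with the most 5′ coding TSS and 26.3% with only the DHS nearest to the gene. Protein-coding genes gave 53.7, 56.5, 50.3, 56.3, 54.7 and 51.5%, in this order, so the share of the 38 stayed below theirs in each. Without the CpG-rich genes, the members gave 17.1, 25.7, 17.1, 25.7, 22.9 and 22.9%. Protein-coding genes of that class gave 29.9, 34.2, 28.0, 34.3, 33.1 and 30.9%, and each of these lay inside the members' interval. Gh and Mbp had a promoter DHS under all of these settings. Within 1 kb, Apoa2, Ckm, Adipoq, Col2a1 and Cdh5 lost theirs, and above the median score Actn2, Myl2, Gfap, Col1a1 and Col2a1 did. With genes of 1 TSS only, chosen after seeing the data, 3 of 17 members (17.6%, 3.80 to 43.4) stood against 38.4%, which this interval contains, unlike that of the 31.6% (17.5 to 48.7) and the 57.0% of protein-coding genes. Above the median score, the further terminal genes went from 15.7 to 10% and the median distance of the 38 to a DHS from 9.79 to 22.9 kb. A CpG limit of 0.75 left 1 CpG-rich member (2.63%). The 4 DHS nearer another gene were 4 by the peak edge and 4 with coding genes only.

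No paired analysis was possible because there is 1 library and no replicates, so leaving one out was not run either. The depth is unknown, which limits every count of genes without a DHS.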
